A study of Rattus norvegicus with 2 samples.

Results

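The Rab GTPases are the largest branch of the Ras superfamily of small GTP-binding proteins. They were taken here as every row of the deposited gene table whose symbol is Rab, a number and at most 1 letter and 1 further digit, which gave 57 of 17202 genes. All 57 gene identifiers carry the same symbol in the RefSeq gene table for rat (assembly GRCr8). RNA was measured by bulk sequencing in primary oligodendrocyte precursor cells (OPCs), the dividing glia that give rise to myelin-forming oligodendrocytes, from the brains of wild-type (WT) rats. The Aβ library comes from cells given amyloid-beta peptide (Aβ) at 1 µM over 2 days. The control library comes from cells given the solvent DMSO, for which the labels state no separate duration. The treatment protocol text describes Aβ for both samples, and the groups here follow the treatment label of each sample. The series text calls the rats developing and the extraction text calls the cells adult, so their age is not settled. The titles of both samples carry P1, which the labels do not explain. The series asks how Aβ acts on oligodendrocyte differentiation, inflammation and the cytoskeleton.

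There was 1 library for each condition, so every difference below is one between 2 libraries, without a replicate check and without a test. The libraries held 15117102 and 15019416 estimated counts. Ratios are Aβ over DMSO after TMM scaling of the counts, and the 95% intervals beside them are exact Clopper-Pearson intervals that cover counting error only. All 8 OPC markers, which include Pdgfra, Olig2 and Sox10, were at 1 CPM (depth-scaled count) or more, with a summed level of 2224 TPM (the length- and depth-scaled transcript level) with Aβ and 2150 TPM with DMSO. All 6 oligodendrocyte markers also reached that level, with sums of 73.8 and 72.3 TPM. All 7 astrocyte markers (1765 and 1677 TPM, headed by Gfap) and all 7 neuronal markers (798 and 767 TPM, headed by Tubb3) were also detected. Of the neuronal markers, Tubb3, Stmn2 and Map2 were each above 142 TPM in both libraries. Rbfox3 and Slc17a7 were at 6.39 TPM or less, and Syt1 and Snap25 lay between. Microglial markers summed to 10.3 and 12.03 TPM. The lists of endothelium and of fibroblasts and pericytes summed to 3.12 TPM or less in either library. Whether these transcripts mark other cells in the culture, and the part of any such cells in the Rab levels, was not tested. If the culture was mixed, fewer cells of a type and less RNA per cell cannot be told apart.

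Rab proteins are molecular switches of membrane traffic. In the GTP-bound state each one sits on a particular organelle and recruits effectors such as tethers, motor adaptors and lipid kinases. Guanine nucleotide exchange factors turn the switch on, GTPase-activating proteins turn it off, and escort proteins and GDP dissociation inhibitors carry the lipid-modified protein to and from membranes. In the oligodendrocyte lineage this traffic moves myelin proteins such as PLP through endosomes and lysosomes to the surface, and it returns growth factor receptors from the endosome or sends them to lysosomes.

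The cultures held a broad Rab repertoire at nearly the same level in both libraries. Of the 57 genes, 52 were measured, meaning that they reached 1 CPM in at least 1 library. The 57 genes together took 74922 counts in the Aβ library and 74737 in the control, which is a ratio of 0.994 (0.984 to 1.00). As a share of all counts this was 0.496% and 0.498%. Among the 52 measured genes, 22 had a ratio above 1 and 30 below, beside 49.7% above and 50.3% below among all 13505 measured genes. The median log2 ratio, computed as log2 of CPM + 0.5 in Aβ over DMSO, was -0.0071 for the Rab genes and -0.00078 for all measured genes. With TPM, whose median log2 ratio over all genes was itself 0.037, 34 Rab genes lay above 1 and 17 below. Relative to that all-gene median 24 lay above and 28 below, beside 22 and 30 relative to the all-gene median of the count ratios. With the trend of the ratio on transcript length removed, 28 lay above and 24 below, with a median of 0.0012.

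Every measured Rab gene stayed within 1.5-fold, while 2.27% of all measured genes lay at least that far apart. The whole counting interval lay within 1.5-fold for 43 of the 52 (82.7%), beside 80.1% of all measured genes. On the log2 (CPM + 0.5) scale, which draws in genes with few counts, a difference of at least 1.2-fold was found for 4 of 52, namely Rab26, Rab20, Rab38 and Rab3c, beside 11.1% of all measured genes. Rab42, with a plain count ratio of 0.794, fell short of it on that scale. The counting interval lay wholly above 1 for 3 genes (Rab1b, Rab8b and Rab26), or 5.77% of 52, beside 6.49% of all measured genes. It lay wholly below 1 for 5 (Rab2a, Rab6a, Rab11b, Rab28 and Rab3b), or 9.62%, beside 6.88%. All 8 were among the 44 Rab genes at 10 CPM or more, where the percentages over all genes were 7.30% above and 7.51% below. At that level 1 of 44, Rab26, differed by at least 1.2-fold, beside 3.85% of all genes, and 0 of 44 by at least 1.5-fold, beside 0.397%. A difference of at least 2-fold with an interval that left out 1 was found for 0 of 52 (0.674% of all measured genes) and 0 of 44 (0.233% at 10 CPM). With TPM the interval lay above 1 for 8 Rab genes (15.4%), beside 13.3% of all measured genes, and below 1 for 0, beside 4.10%. Among genes in general the scatter was wider than counting alone gives. Whether this holds for the 45 Rab genes taken by themselves was not tested. Squared differences were 1.36 times the counting variance for the 45 Rab genes with whole counts of 50 or more in each library, and 1.30 times for all 10441 such genes.

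**Figure D1:**
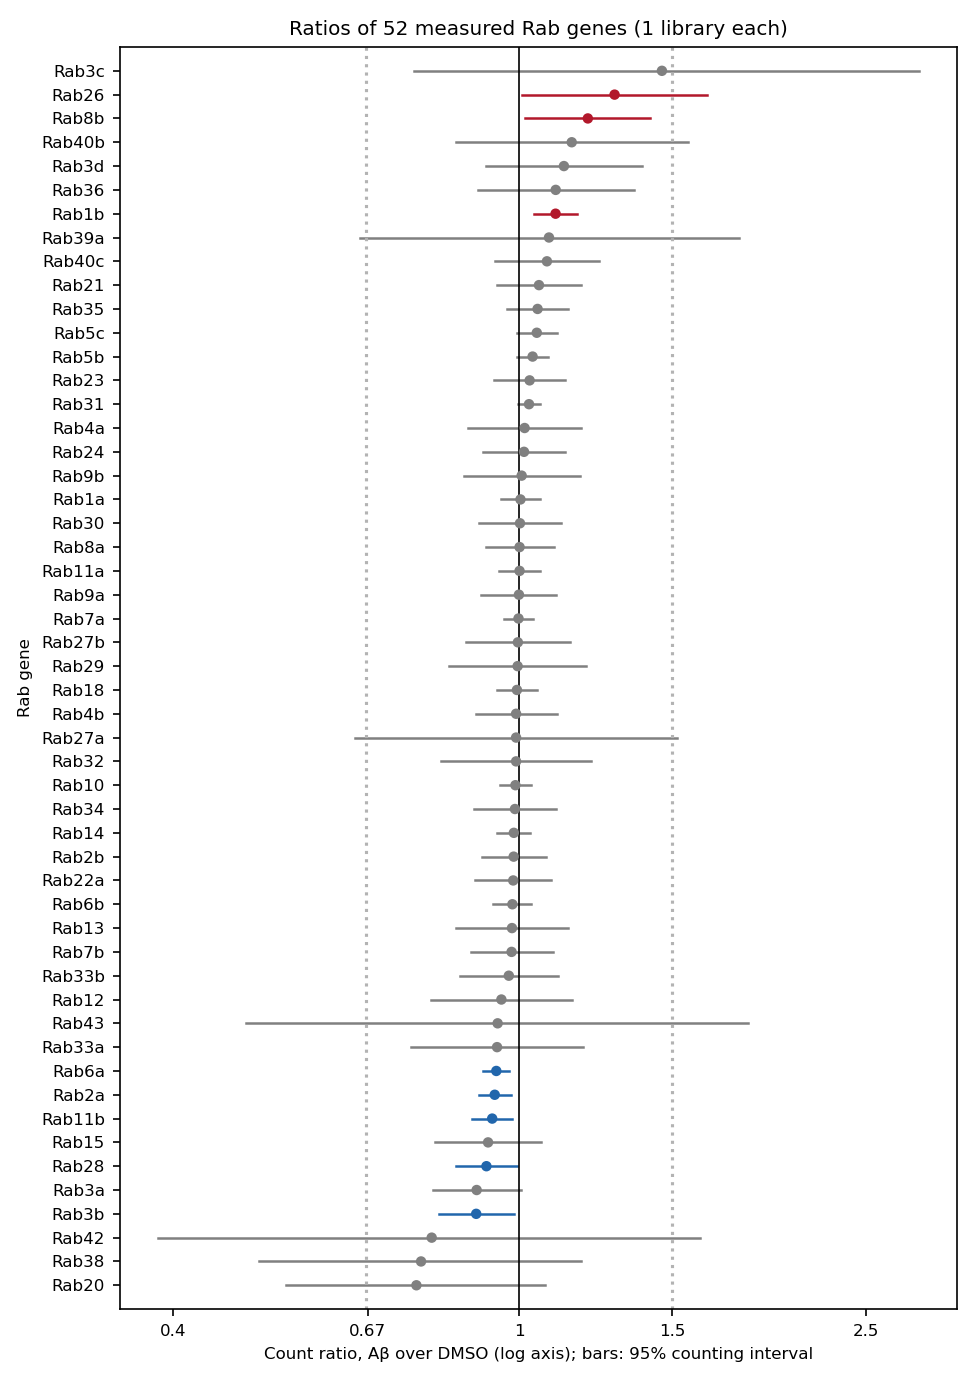
Count ratio of Aβ over DMSO for each of the 52 measured Rab genes on a log axis, with 1 library per condition. Points are ratios, bars are 95% counting intervals, dotted lines mark 1.5-fold either way, red marks the 3 genes whose interval lay wholly above 1 and blue the 5 wholly below. Most genes sit close to 1, and the widest bars belong to genes with few counts, such as Rab3c and Rab42.

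Fractional estimated counts were rare in this family. A fraction appears where an ambiguous read was shared out between genes. Only Rab1b (2451 counts with Aβ and 2208.01 with DMSO) and Rab5a (0.98 and 0) had them, while among all measured genes 13.2% did. The 2 cases differed in size. For Rab1b the decimal part was small beside the count, but it does not tell how many reads were shared with other genes. For Rab5a the row was almost empty although Rab5a, with Rab5b and Rab5c, controls fusion of early endosomes in most cell types. A separate row, Rab5al1, whose symbol marks it as Rab5a-like and which falls outside the rule for the family, held 1061.84 estimated counts with Aβ and 958.32 with DMSO, also fractional, or 55.1 and 48.9 TPM.

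The windows before the annotated starts of Rab5a and Rab5al1 show how unlike the 2 loci are upstream. They are printed because the Rab5a row was almost empty and the Rab5al1 row was not. Whether the 2 rows share reads was not tested. Both are the 250 bases before the start in RefSeq (GRCr8, plus strand, 5′ to 3′), with CG dinucleotides in capitals. Rab5a lies at chr9:6720877-6721126 and Rab5al1 at chr14:72544548-72544797.
Rab5a: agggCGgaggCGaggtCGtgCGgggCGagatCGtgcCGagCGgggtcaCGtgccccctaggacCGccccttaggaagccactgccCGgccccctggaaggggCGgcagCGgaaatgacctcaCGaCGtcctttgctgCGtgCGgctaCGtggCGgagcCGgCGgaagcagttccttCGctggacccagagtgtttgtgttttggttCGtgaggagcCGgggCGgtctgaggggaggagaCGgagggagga
Rab5al1: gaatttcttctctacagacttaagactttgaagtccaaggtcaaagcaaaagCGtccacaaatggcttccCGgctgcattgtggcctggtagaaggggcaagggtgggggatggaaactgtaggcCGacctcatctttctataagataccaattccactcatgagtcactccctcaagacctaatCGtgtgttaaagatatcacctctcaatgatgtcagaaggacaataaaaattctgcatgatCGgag
The Rab5a window had a GC content of 68.4% and 26 CG dinucleotides, and 11.1% of the 21842 RefSeq protein-coding windows of this length had as many. The Rab5al1 window had 45.2% GC and 5 CG dinucleotides, and 40.9% of windows had as few. The longest run of bases the 2 windows shared was 8. Thus the CG-rich window belongs to the row with almost no counts. Which of the 2 loci the reads came from was not tested.

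Counted together, Rab5a and Rab5al1 held 1063 and 958 counts after rounding, a ratio of 1.1 (1.01 to 1.2). On its own the Rab5a row gave no ratio, since both of its values lay under the floor of 3 counts. The sum of the rows was chosen after their values were seen. It put the Rab5a-like transcripts below Rab5c and Rab5b but well above the level of measurement.

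Apart from Rab5a, 4 genes were below 1 CPM in both libraries. Rab25, an epithelial relative of Rab11, had 0 counts with Aβ and 2 with DMSO. Rab37, of regulated secretion, had 0 and 1. Rab44 had 1 and 0, and Rab19, of the Golgi, had 1 and 2. A count of 0 allows up to 3 counts, or 0.198 CPM in the Aβ library, so these genes were at or under the floor of detection in both.

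Levels of the measured genes spanned from below 2 TPM to above 250 TPM. The median was 51.4 TPM with Aβ and 51.6 with DMSO, beside 19.96 and 19.4 TPM over all measured genes. Rab7a, Rab31, Rab2a, Rab1a, Rab11b, Rab6a, Rab18 and Rab10 were the 8 most abundant by mean TPM, and they made up 46.9% of all Rab TPM with Aβ and 47.6% with DMSO. The first places were close. Rab31 led with Aβ at 280.5 TPM, ahead of Rab7a at 277.1, and Rab7a led with DMSO at 270.6 TPM, ahead of Rab31 at 266 and Rab2a at 265. Rab2a stood at 255 TPM with Aβ. Rab1a had 247 and 240 TPM, Rab11b 214 and 225, Rab6a 204 and 211, Rab18 178 and 175, and Rab10 178 and 175. The order of these lower places was the same in both libraries, with Rab18 and Rab10 less than 1 TPM apart. By place of action, the Rabs of the endoplasmic reticulum and Golgi held 33.2% of Rab TPM with Aβ and 33.6% with DMSO. Early endosome Rabs held 19.2% and 18.5%, recycling endosome Rabs 16.9% and 17.1%, Rabs of polarised transport 14.3% in each, late endosome and lysosome Rabs 10.01% in each, and secretory Rabs 4.68% and 4.93%.

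**Figure D2:**
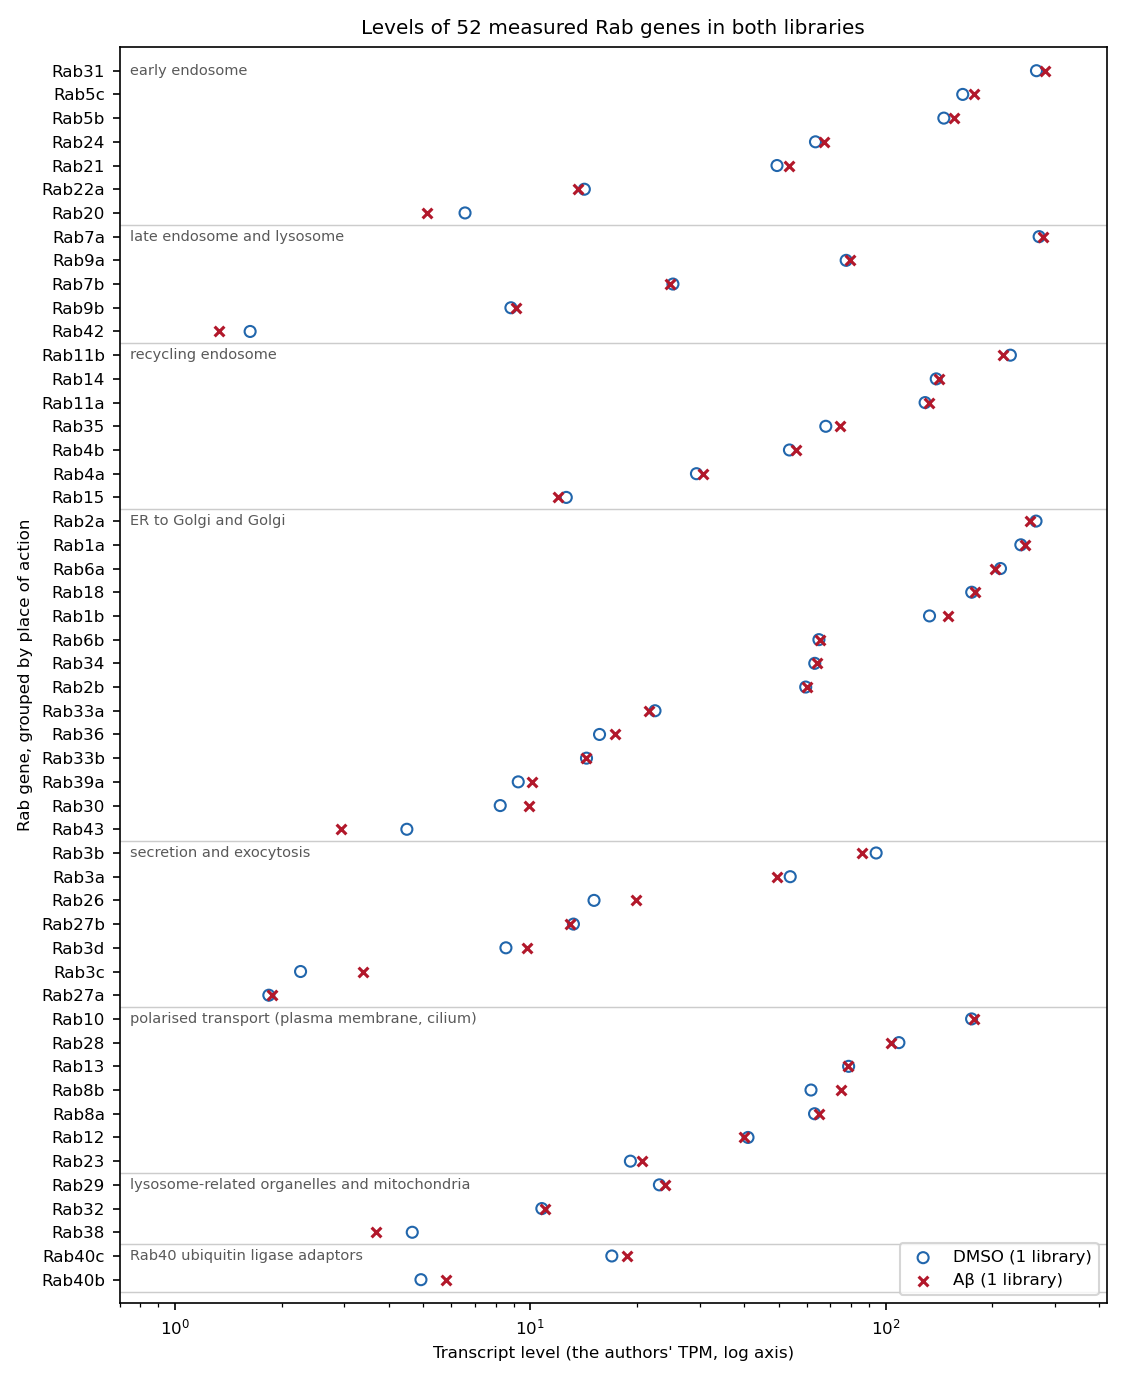
Transcript level of each of the 52 measured Rab genes in TPM on a log axis, with Aβ as crosses and DMSO as open circles (1 library each), grouped by place of action. The symbols of most genes nearly coincide, from Rab42 at the bottom of the range (1.33 and 1.63 TPM) to Rab31 and Rab7a at the top.

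Early endosome Rabs receive endocytosed cargo and lay mostly slightly higher with Aβ. Of 7 measured genes 5 had a ratio above 1, beside 49.7% of all measured genes, and 0 of the 7 had an interval that left out 1. The median log2 ratio was 0.038. The summed counts of the class, Rab5a included, were 18786 and 18098, a ratio of 1.03 (1.01 to 1.05). Rab31, which acts between the trans-Golgi network and endosomes, had the most counts of any Rab gene, 8894 with Aβ and 8595 with DMSO (1.03, 0.996 to 1.06). Rab5b had 4775 and 4571 counts (1.04, 0.995 to 1.08) and Rab5c 2928 and 2772 (1.05, 0.994 to 1.1). The intervals of these 3 genes reached from just under 1 to at most 1.1, so each difference was of a size that counting error alone covers. Rab21, which traffics integrins, had 664 and 625 counts (1.05, 0.943 to 1.18), and Rab24, linked to autophagy, 675 and 661 (1.01, 0.909 to 1.13). Rab22a, an early endosome Rab, had 786 and 792 counts (0.984, 0.891 to 1.09). Rab20, found on endosomes and phagosomes, had the lowest ratio of all measured Rab genes, 0.762 (0.540 to 1.07), from only 63 and 82 counts and 5.12 and 6.56 TPM.

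Late endosome and lysosome Rabs lay closest to 1. Rab7a, which drives fusion of late endosomes with lysosomes, had 5198 counts with Aβ and 5165 with DMSO (0.998, 0.960 to 1.04). Rab9a, which returns cargo from late endosomes to the Golgi, had 802 and 796 (0.999, 0.905 to 1.1), and its paralog Rab9b 342 and 337 (1.01, 0.863 to 1.17). Rab7b had 667 and 675 counts (0.980, 0.879 to 1.09). The intervals of these 4 genes all lay within 1.2-fold of 1. Rab42 had 16 and 20 counts and 1.33 and 1.63 TPM (0.794, 0.384 to 1.61), a depth at which a difference of this size was not detectable. The summed counts of the 5 genes gave a ratio of 0.996 (0.964 to 1.03).

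Recycling endosome Rabs return receptors to the surface, and 3 of 7 measured genes lay above 1, with a median log2 ratio of -0.012. Rab11b had 2698 counts with Aβ and 2874 with DMSO (0.931, 0.883 to 0.982), whereas Rab11a, which shares its role as the principal recycling endosome Rab, had 2738 and 2713 (1.00, 0.949 to 1.06). The interval of Rab11b left out 1 and that of Rab11a did not. The difference between the paralogs was not tested. Rab14, between Golgi and endosomes, had 4067 and 4091 counts (0.986, 0.944 to 1.03). Rab35, of fast recycling and of exosome release by oligodendroglia, had 1249 and 1180 (1.05, 0.969 to 1.14). The remaining genes of this class were level within counting error. Rab4a, of rapid recycling, had 359 and 351 counts (1.01, 0.873 to 1.18), its paralog Rab4b 687 in each library (0.992, 0.891 to 1.1) and Rab15 390 and 420 (0.921, 0.80 to 1.06).

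Among Rabs of the endoplasmic reticulum and Golgi, 5 of 14 measured genes lay above 1, and the class held genes whose intervals left out 1 on either side. Rab1b, required for transport from the endoplasmic reticulum to the Golgi, had a ratio of 1.1 (1.04 to 1.17), with 150.2 TPM against 133 TPM. Its paralog Rab1a, of the same step, had 2866 and 2833 counts (1.00, 0.952 to 1.06). Rab2a, which acts at the Golgi and in lysosome fusion, had 4320 and 4571 counts (0.937, 0.899 to 0.977), and Rab6a, of retrograde traffic through the Golgi, 6533 and 6884 (0.941, 0.910 to 0.974). These 2 genes were lower with Aβ by about the same factor. Their paralogs stood nearer 1, Rab2b with 1089 and 1096 counts (0.986, 0.905 to 1.07) and Rab6b with 3051 and 3081 (0.982, 0.934 to 1.03). Rab18, of lipid droplets and the endoplasmic reticulum, had 2698 and 2692 counts (0.994, 0.942 to 1.05). The other 7 measured genes of this class had intervals that included 1, with ratios from 0.943 for Rab33a to 1.1 for Rab36. Summed over the class the ratio was 0.978 (0.961 to 0.996).

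Secretory Rabs showed the widest scatter, with lower counts. Rab3a and Rab3b, which prime vesicles for exocytosis, were both lower with Aβ, at 555 and 616 counts and 49.4 and 53.9 TPM (0.894, 0.795 to 1.00) and at 755 and 839 counts and 86.0 and 94.1 TPM (0.893, 0.808 to 0.986). Rab3d lay the other way with 202 and 178 counts and 9.80 and 8.55 TPM (1.13, 0.916 to 1.38), as did Rab3c, the highest ratio of the family, with 25 and 17 counts and 3.39 and 2.26 TPM (1.46, 0.757 to 2.88). The 2 abundant members set the sum, and the 4 Rab3 rows together had 1537 and 1650 counts, a ratio of 0.924 (0.861 to 0.991). With TPM the ratios of Rab3a and Rab3b were 0.915 and 0.914. Rab26, of secretory granules, had 157 and 121 counts and 19.9 against 15.1 TPM, the highest ratio among genes whose interval left out 1 (1.29, 1.01 to 1.65). Rab27b, which docks secretory lysosomes and multivesicular bodies, had 422 and 420 counts (0.997, 0.869 to 1.14), and Rab27a, its paralog, 47 in each (0.992, 0.648 to 1.52).

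Rabs of polarised transport carry vesicles to the plasma membrane and the primary cilium. Rab8b had 324 counts against 268, and 75.1 against 61.7 TPM (1.2, 1.02 to 1.42), while its paralog Rab8a had 980 and 971 counts (1.00, 0.915 to 1.1). Rab28, a ciliary Rab, lay the other way with 1152 and 1246 counts and 103.6 and 109.1 TPM (0.917, 0.846 to 0.994). Its upper limit was close to 1. Rab10, of exocytic transport, was level with 4543 and 4551 counts (0.990, 0.950 to 1.03). Rab13, of cell junctions, had 367 and 371 (0.981, 0.847 to 1.14), and Rab23, an inhibitor of Hedgehog signaling, 910 and 878 (1.03, 0.936 to 1.13). Rab12, of recycling traffic though listed in this class, had 227 and 236 (0.954, 0.792 to 1.15).

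The smallest classes had few counts. Rab29, a Rab tied to the kinase Lrrk2, had 246 and 245 counts (0.996, 0.831 to 1.19), and Rab32, of lysosome-related organelles and mitochondria, 204 in each library (0.992, 0.813 to 1.21). Rab38, their relative in melanosome formation, had 42 and 54 counts and 3.68 and 4.66 TPM (0.771, 0.503 to 1.18). Both measured Rab40 genes, which carry a SOCS box and serve in ubiquitin ligases, had ratios above 1, with 434 and 400 counts for Rab40c (1.08, 0.937 to 1.24) and 95 and 82 for Rab40b, at 5.81 and 4.93 TPM (1.15, 0.846 to 1.56). All of these intervals included 1.

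Many Rabs come as paralogs with the same number, and the division of transcripts among them was nearly the same in both libraries. Rab7a made up 91.8% of Rab7 TPM with Aβ and 91.5% with DMSO, and Rab9a 89.7% and 89.8% of Rab9 TPM. Rab2a held 81.0% and 81.6% and Rab6a 75.7% and 76.4% of their pairs. In the secretory subfamilies the leading gene was Rab3b, with 57.9% and 59.2%, and Rab27b, with 87.3% and 87.8%. By TPM the Rab8 pair was the most even. Of the 13 subfamilies drawn here only this one changed its leading gene, since Rab8b took 53.7% with Aβ and 49.4% with DMSO. With DMSO the 2 genes were close, at 61.71 TPM for Rab8b and 63.15 TPM for Rab8a. By counts Rab8a led in both libraries, with 980 against 324 with Aβ and 971 against 268 with DMSO. Whether the change of leading gene exceeds counting error was not tested. Summing the rows of a subfamily moved several differences closer to 1. The Rab8 pair together had a ratio of 1.04 (0.965 to 1.13) and the Rab11 pair 0.965 (0.930 to 1.00), both with intervals that include 1. Intervals left out 1 for the sums of Rab1 (1.05, 1.01 to 1.09), Rab2 (0.947, 0.912 to 0.983) and Rab6 (0.954, 0.927 to 0.981), and for the Rab3 sum given above. The Rab5 rows summed to 1.04 (1.01 to 1.07), although the intervals of Rab5b and Rab5c each included 1. Sums hold more counts than their single rows, so their counting intervals are narrower. No share over sums of other genes was computed to set beside them, and the same limit holds for the class sums above.

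**Figure D3:**
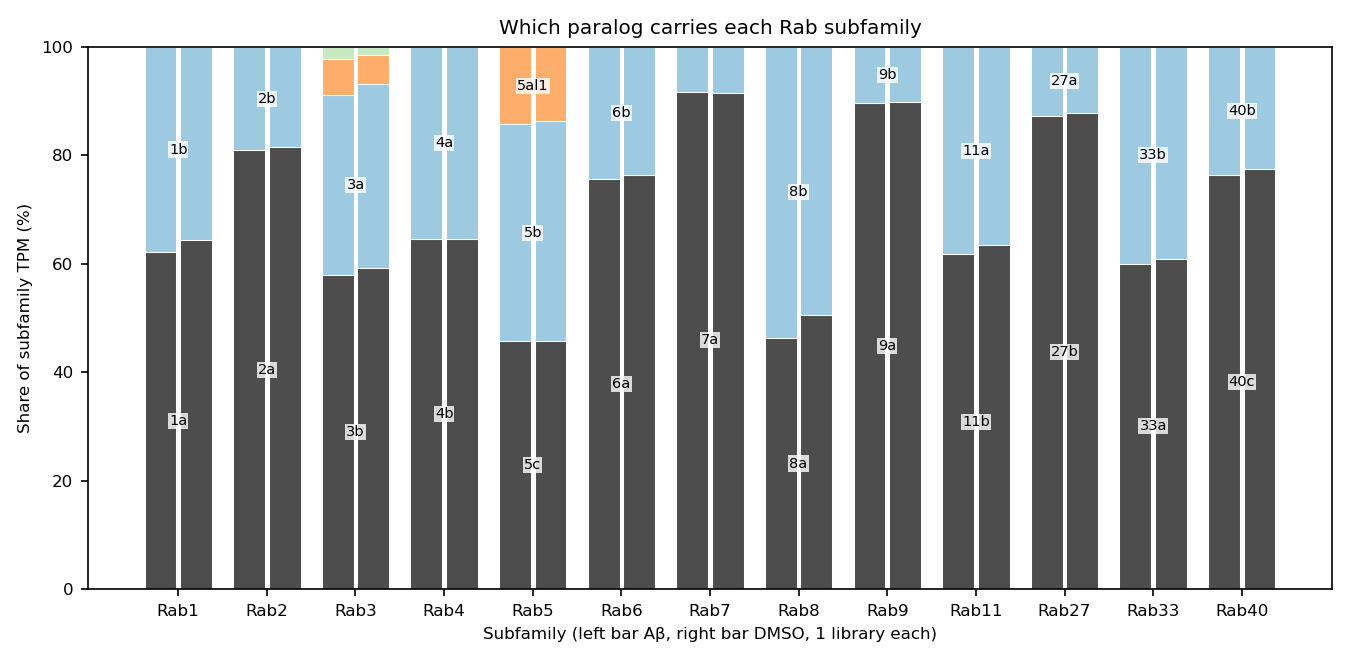
Share of each subfamily's TPM held by each paralog, in percent, for 13 subfamilies with more than 1 row (left bar Aβ, right bar DMSO, 1 library each; labels give the paralog, and Rab5al1 is drawn with Rab5). Shares above the labelled part in Rab3 are Rab3d and Rab3c, and the unlabelled top of Rab7 is Rab7b. The bars of a pair differ visibly for Rab8, where Rab8b held 53.7% with Aβ and 49.4% with DMSO.

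The TPM ratio departed from the count ratio for 2 of the 52 measured genes, Rab30 and Rab43, both Golgi Rabs. TPM divides the count by the effective transcript length that the quantifier assigned in that library. If that length is the same in both libraries, the TPM ratio follows the count ratio. The 2 ratios lay at least 1.1-fold apart, after the median offset of all genes was removed, for 1.62% of all measured genes that had at least 1 TPM in each library. Among genes at 10 CPM or more it was 0.698%, and 1 of the 44 Rab genes, Rab30. Rab43 had 20 and 21 counts (0.945, 0.486 to 1.83) but 2.94 TPM with Aβ against 4.50 TPM with DMSO, a TPM ratio of 0.653. Its implied length in the Aβ library was 1.48 times that in the DMSO library. Rab30 had 682 and 675 counts (1.00, 0.900 to 1.12) but 9.94 against 8.24 TPM, a TPM ratio of 1.21, and an implied length 0.853 times as long with Aβ. By TPM alone Rab30 was higher and Rab43 lower with Aβ, where the counts were nearly equal. Whether the transcript isoforms of these genes differed was not tested.

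**Figure D4:**
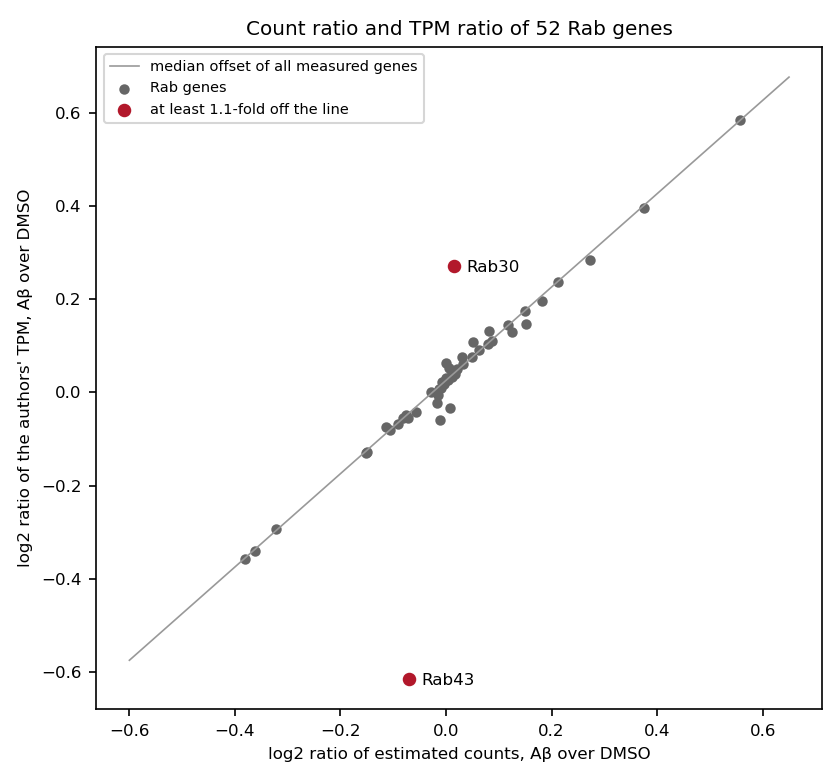
The log2 ratio of TPM against the log2 ratio of estimated counts, both Aβ over DMSO, for the 52 measured Rab genes, with the median offset of all measured genes as a line. Rab30 lies above the line and Rab43 below it, and the other genes lie within 1.1-fold of it.

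Promoter windows of 300 bases, from 250 before to 50 after the start, were matched in RefSeq (GRCr8) for 46 of the 57 genes. Their median GC content was 63.3%, beside 60.7% for the measured genes of the table that have such a window and 55.0% for all RefSeq protein-coding genes. The 42 measured Rab genes had a median of 64.0% and the 4 matched genes below 1 CPM 57.3%. The median ratio of observed to expected CG dinucleotides was 0.707 for Rab genes, 0.758 for measured genes and 0.521 for all protein-coding genes, so Rab genes lay below other measured genes on this measure. Among the 4 genes below 1 CPM, Rab5a had 67.7% GC. In all, 4 motifs were searched on both strands of these windows. The E-box CACGTG was found in 4 of 46 (8.70%: Rab5a, Rab20, Rab21 and Rab31), beside 7.01% of all protein-coding windows. The CLEAR palindrome, an E-box flanked by GT and AC whose match is also an E-box match, was found in 1 (Rab21), beside 0.311%. The cyclic AMP element TGACGTCA was found in 1 (Rab25), beside 2.10%, and TATAAA in 0, beside 13.0%.

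The proteins that load and switch Rabs lay mostly within 1.2-fold as well. Of 9 measured genes for prenylation and membrane extraction, 4 lay above 1 and 5 below. Gdi2, a GDP dissociation inhibitor that keeps Rabs soluble, was more abundant than any Rab gene, at 382 TPM with Aβ and 379 TPM with DMSO. Its ratio was 0.984 (0.953 to 1.02). Rabggtb and Rabggta, the subunits of the enzyme that attaches the lipid, had ratios of 0.923 (0.842 to 1.01) and 0.966 (0.875 to 1.07). Gdi2, both of these subunits and Lrrk2 were chosen for their known roles after their values were seen. Rabac1, a Golgi protein that binds prenylated Rabs, had 800 and 674 counts (1.18, 1.06 to 1.31). Rabif, a chaperone-like Rab regulator, stood far apart with 458.78 estimated counts with Aβ and 0 with DMSO, or 29.4 and 0 TPM. Its counts were fractional, as were those of the almost empty Rab5a row. Whether its values reflect the transcript level or how ambiguous reads were assigned between genes was not tested.

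Of 45 measured exchange factors, 25 (55.6%) lay above 1, beside 49.7% of all measured genes, with a median log2 ratio of 0.027. The interval lay above 1 for 8 (17.8%) and below 1 for 2 (4.44%), beside 6.49% and 6.88% of all measured genes. The 4 of these furthest from 1 were Smcr8, a partner of C9orf72, at 1.26 (1.02 to 1.56), Hps1 at 0.818 (0.674 to 0.992), Mon1a, part of the activator of Rab7, at 1.21 (1.01 to 1.46), and Ric1, part of the activator of Rab6, at 1.12 (1.02 to 1.23). Of 38 measured GTPase-activating proteins, 25 (65.8%) lay above 1, with a median of 0.063. The interval lay above 1 for 5 (13.2%) and below 1 for 0, beside the same 6.49% and 6.88%. They included Tbc1d16 with 950 and 797 counts (1.18, 1.07 to 1.30), Rabgap1 with 1685 and 1419 (1.18, 1.1 to 1.26), Tbc1d2b with 618 and 523 (1.17, 1.04 to 1.32) and Sgsm3 at 1.14 (1.00 to 1.29). These 4 genes had the ratios furthest from 1 among those whose interval left out 1.

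Of 71 measured effectors, 48 lay above 1, with a median log2 ratio of 0.041. The 48 were 67.6% of the list, beside 49.7% of all measured genes. The interval lay above 1 for 9 (12.7%) and below 1 for 0, beside 6.49% and 6.88%. The furthest were Rab11fip2, which links Rab11 to myosin V, with 103 and 72 counts (1.42, 1.04 to 1.95), the dynein adaptor Bicd1, an effector of Rab6, with 272 and 216 (1.25, 1.04 to 1.5), the Rab5 tether Eea1 with 192 and 153 (1.24, 1.00 to 1.55) and Rilpl1, which binds phosphorylated Rabs, with 527 and 436 (1.2, 1.05 to 1.36). The 4 kinases linked to Rab phosphorylation all lay below 1 with intervals that included it. The furthest was Lrrk1 with 22 and 27 counts (0.808, 0.439 to 1.47). Lrrk2, mutated in familial Parkinson disease, had 286 and 302 (0.939, 0.796 to 1.11). With the trend on transcript length removed, the median was -0.0022 for exchange factors, 0.021 for effectors and 0.053 for GTPase-activating proteins, so the first changed sign and the second lay closer to 0.

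**Figure D5:**
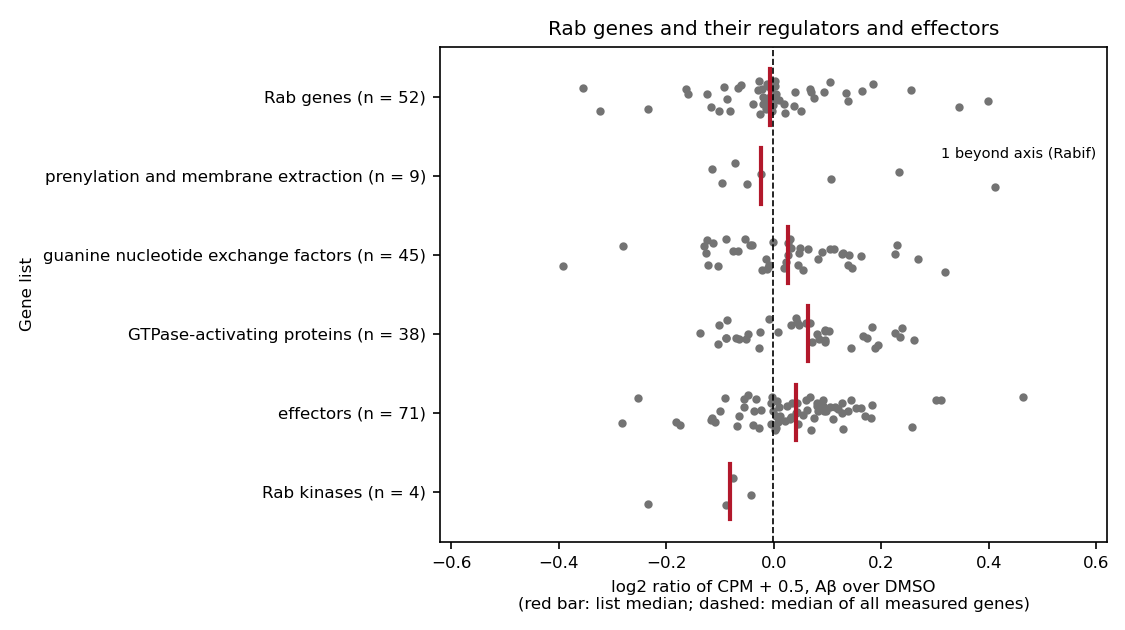
The log2 ratio (CPM + 0.5, Aβ over DMSO) of each measured gene, as grey points with vertical scatter for legibility, for Rab genes and 5 lists of their regulators and effectors. Red bars are list medians and the dashed line is the median of all measured genes. The Rab median lies on the dashed line, GTPase-activating proteins have the highest median (0.063), and Rabif lies beyond the axis.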

How the data were processed

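The RNA of 2 libraries was compared, 1 with Aβ and 1 with DMSO, of 15117102 and 15019416 estimated counts. Per the submitters' processing notes, Bowtie2 and the rat build Rnor_6.0 were used. Not given in the sources used here were the Bowtie2 version, the quantifier, the annotation release and whether counting used strand, so antisense reads cannot be told apart. Library construction from total RNA used a BGI mRNA kit, per the labels' protocols. The authors' estimated counts (expected counts) per gene need not be whole, and the authors' TPM values are scaled to the same sum in each library. The authors' FPKM values, per the file headers, served only for effective lengths. The deposited signal column, named as a normalized read count, equalled the estimated count rounded up over a constant and was not used further.

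Counts were rounded and scaled with TMM from edgeR 4.0.16 in R 4.3.3, and edgeR and DESeq2 1.42.0 supplied library factors alone. A count was called whole within 0.001. A gene was called measured where either library reached 1 CPM. Exact 95% Clopper-Pearson intervals are conditional on the sum of both counts, and reads without molecular identifiers are not independent molecules. The length trend was a lowess fit (fraction 0.3) in statsmodels 0.14.6. The interval code was tested on simulated data. The family, its classes by place of action and the 5 regulator lists were chosen with earlier results of these data known. Any Rab gene could be named. Full values were given for genes whose interval left out 1, genes with fractional counts, the 6 highest and 6 lowest log2 ratios and the 8 most abundant. Of each regulator list, up to 4 genes furthest from 1 whose interval left out 1 were named, or otherwise the furthest each way, and any further name is marked as such. The values of 1 gene that this rule names are not reported here.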

Additional observations from a re-analysis of the deposited data

How the results depend on the processing

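With TPM in place of counts, 34 genes lay above 1 and 17 below, intervals lay above 1 for 8 and below 1 for 0, and the ratio of the summed levels was 1.02. With rows of the same Rab number summed, 14 sums lay above 1, since fewer rows were counted. Under the other alternatives (library factors from total counts or medians of ratios, whole counts only, no filter on level or one of 10 CPM, pseudocounts of 0.1 and 5, the length trend removed, Rab5a and Rab5al1 summed) 19 to 28 genes lay above 1, and intervals lay above 1 for 2 to 4 genes and below 1 for 4 or 5. The family's median log2 ratio ranged from -0.0085 to 0.030 and was above 0 with TPM and with the length trend removed. The early endosome and Rab40 medians stayed above 0 under every alternative run for them. The other 6 class medians and that of the prenylation list turned above 0 with TPM, a scale on which the median of all genes was itself 0.037. With the length trend removed, the medians of late endosome (0.0035), recycling (0.0016) and polarised transport Rabs (0.0050) turned above 0 and that of the exchange factors (-0.0022) below 0. With median-of-ratios factors, those of late endosome (0.0039) and secretory Rabs (0.0015) turned above 0. Among alternative values for single Rab genes 420 stayed within the counting interval and 1 did not, Rab30 with TPM, at a log2 ratio of 0.26. Many of the 420 could not move. With whole counts only, and with Rab5a and Rab5al1 summed, the values kept for genes other than Rab5a repeat the main ones by construction. The 420 also include values of Rab5a, whose row gave no ratio and whose interval had no upper limit. Summing Rab5a with Rab5al1 was chosen after seeing the data. No paired analysis was possible because each condition has 1 library. Depth limits the 9 of 52 genes whose interval reaches beyond 1.5-fold, which have at most 157 counts in a library.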
